A study of Homo sapiens with 6 samples.

Results

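SPANXA2, SPANXB1, SPANXC, SPANXD, TEX19 and HENMT1 are genes of germ cells that were chosen because they changed strongly in MDA-MB-231 cells labelled shRNA-1. They are 6 of 20046 genes named on the array and are read by 11 of its 48107 probes. No threshold was stated for the choice. Their differences in MDA-MB-231 are therefore given as a description, without a test. The samples are 2 human breast cancer cell lines carrying hairpins against SETDB1 or a control hairpin. MDA-MB-231, a mesenchymal-like line without hormone receptors, has 2 arrays labelled as SETDB1 knock-down with shRNA-1 and 2 labelled shCtrl. MDA-MB-453, a luminal-like line with the androgen receptor, has 1 array labelled as knock-down with shRNA-3 and 1 labelled shCtrl. Total RNA was hybridised to Illumina bead arrays, and line and hairpin changed together. Values are background-corrected, normalised log2 intensities of a probe, and differences are hairpin minus control.

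SPANX genes ("sperm protein associated with the nucleus, X-linked") are switched on after meiosis, in spermatids, and are silent in most body tissues, but many tumours express them. Genes with that pattern are called cancer-testis genes. TEX19 is likewise a cancer-testis gene, and in mice its counterparts act in the germline and placenta and help to restrain retrotransposons. HENMT1 methylates the ends of piRNAs, small RNAs that guide silencing of transposons in germ cells, and this stabilises them. SETDB1 places a repressive methyl mark on histones, and in mouse cells loss of that mark has been linked to expression of germline genes.

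The start regions of the SPANX genes show how alike the copies are, and that of HENMT1 is shown beside them because it holds more CG dinucleotides. Each run holds the 250 bases before the RefSeq start on the gene's own strand (RefSeq, GRCh38.p14), with CG dinucleotides, the sites of DNA methylation, in capitals.
SPANXB1, chrX:141002344-141002593, plus strand: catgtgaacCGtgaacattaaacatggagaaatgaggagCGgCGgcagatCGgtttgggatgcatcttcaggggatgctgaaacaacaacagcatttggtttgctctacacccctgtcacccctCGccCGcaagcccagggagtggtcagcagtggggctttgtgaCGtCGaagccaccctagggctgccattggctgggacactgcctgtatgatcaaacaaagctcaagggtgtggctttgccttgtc
SPANXC, chrX:141242518-141242767, minus strand: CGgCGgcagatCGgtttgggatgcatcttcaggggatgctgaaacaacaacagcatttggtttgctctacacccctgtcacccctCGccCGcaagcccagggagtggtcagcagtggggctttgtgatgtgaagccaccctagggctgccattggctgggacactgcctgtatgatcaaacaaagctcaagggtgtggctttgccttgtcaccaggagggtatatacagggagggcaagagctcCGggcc
SPANXA2, chrX:141589458-141589707, plus strand: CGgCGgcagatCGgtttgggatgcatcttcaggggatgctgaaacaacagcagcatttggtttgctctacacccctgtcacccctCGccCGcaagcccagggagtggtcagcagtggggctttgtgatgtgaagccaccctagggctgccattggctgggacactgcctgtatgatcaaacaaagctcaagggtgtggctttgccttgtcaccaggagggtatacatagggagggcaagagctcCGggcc
HENMT1, chr1:108661475-108661724, minus strand: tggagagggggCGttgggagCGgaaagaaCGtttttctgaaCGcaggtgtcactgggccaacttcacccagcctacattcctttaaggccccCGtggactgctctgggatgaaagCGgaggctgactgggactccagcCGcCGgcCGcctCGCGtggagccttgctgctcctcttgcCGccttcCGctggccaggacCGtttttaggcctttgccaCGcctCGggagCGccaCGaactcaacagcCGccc

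Over the 300-base windows around the starts, SPANXA2 and SPANXC were identical at 295 of 300 aligned bases. SPANXB1 and SPANXC were identical at 255 of 261. SPANXA2 and SPANXA1, a copy outside the chosen genes, were identical at all 300. The window of SPANXD begins further upstream, and 66 of its bases aligned with SPANXB1, all identical. CG dinucleotides numbered 6 in the 250 bases of SPANXA2 and of SPANXC, 8 in SPANXB1 and 4 in SPANXD, against 19 in the HENMT1 run above and 35 before its other RefSeq start. The median over 35116 human windows was 11, with quartiles of 3 and 23. Searched on both strands over 300 bases, the E-box CACGTG lay in 7.26% of all windows and the E2F6-type motif GCGGGAA in 6.55%, and neither lay in any of the 7 windows searched here, 2 of HENMT1 and 1 each of SPANXA1, SPANXA2, SPANXB1, SPANXC and SPANXD. TEX19 was not searched. The CCAAT box (CCAAT) lay in 34.6% of all windows and in 5 of these 7, those of the SPANX genes. None of the 3 motifs contains another.

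SETDB1, the target of the hairpins, was read by 1 probe and was not measurably lower. It stood at 7.29 and 7.21 on the MDA-MB-231 shRNA-1 arrays, against 7.40 and 7.42 on the controls. The difference was -0.16 ± 0.16 (SE, limma adjusted p = 0.493). The shRNA-3 array of MDA-MB-453 read 8.73 and its control 8.98. Because of this, arrays are called by their labels throughout, and each direction below rests on those labels. Between 19230 and 21238 probes were detected per array (detection p below 0.05). The number of arrays limits the precision, and nothing states that replicates were separate cultures, so a p-value covers the spread among these arrays alone, which may be technical. All 6 arrays are labelled as 1 batch.

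The SPANX probes were high on both MDA-MB-231 shRNA-1 arrays and low or not detected on the other 4. The SPANXA2 probe read 13.59 and 13.13 on the shRNA-1 arrays, against 6.46 and 5.91 on the controls. The SPANXC probe read 12.41 and 12.03 on the shRNA-1 arrays, against 5.09 and 4.52 on the controls, where it was detected on 1 of 2. In each case both shRNA-1 arrays lay far above both controls, and the gap exceeded that between replicates many times over. These genes were chosen for a large change on these arrays, so nothing is read from that gap. In original intensity units, before any correction, the SPANXC probe gave 5520 and 3990 on the shRNA-1 arrays, against 60.4 and 49.1 on the controls. A SPANX transcript was therefore already measurable in MDA-MB-231 controls on the SPANXA2 probe, at a detection p below 0.05 on both.

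SPANXB1 has 3 probes, and they differed in what they showed. The probe ILMN_2211030 read 13.45 and 13.13 on the shRNA-1 arrays, against 6.18 and 6.01 on the controls. The probe ILMN_2211032 read 5.15 and 4.60 on the shRNA-1 arrays, against 4.27 and 4.44 on the controls, and was detected on only 1 of the 6 arrays. The probe ILMN_3244713 was not detected on any array. SPANXD has 4 probes, of which 3 read far higher with shRNA-1. ILMN_2132100 read 11.96 and 11.50 on the shRNA-1 arrays, against 4.62 and 4.55 on the controls, where it was not detected, a difference of at least 122-fold on this scale. Its log2 difference was 7.14, and 5.88 with an offset of 50 in place of 16 in the background correction, so the folds of the SPANX probes depend on how background is handled. ILMN_1732781 was at least 93.7-fold higher and ILMN_1713125 at least 16.1-fold, both also not detected on either MDA-MB-231 control. The fourth, ILMN_3242729, was not detected on any array.

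In all, 6 of the 9 SPANX probes were detected on both MDA-MB-231 shRNA-1 arrays, each at least 4-fold above the controls in the fitted mean, and the other 3 on 1 array or none. SPANXA1 has 2 probes. ILMN_2233319 read 9.22 and 9.12 on the shRNA-1 arrays, against 5.41 and 4.87 on the controls, and ILMN_2233314 was at least 4.42-fold higher. The probe sequences and transcripts were not analysed here. Because SPANX genes are known as near-identical copies, which copy each probe read is uncertain, and levels of different probes are not compared. The more distant relatives SPANXN1, SPANXN2, SPANXN3, SPANXN4 and SPANXN5 were not detected on any of the 6 arrays.

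In MDA-MB-453 no SPANX probe was detected with shRNA-3. SPANXA2 read 4.42 on the shRNA-3 array, where it was not detected, and 5.24 on the control, where it was. SPANXC read 4.61 on the shRNA-3 array and 4.30 on the control, and SPANXB1 (ILMN_2211030) 4.38 and 4.56, none of them detected. The SPANXD probe ILMN_1713125 was not detected on the shRNA-3 array at 4.44 and was detected on the control at 5.01. Of the 9 SPANX probes, 4 read lower on the shRNA-3 array than on the control, and 2 were detected on the control. The large SPANX signal was thus present on both MDA-MB-231 shRNA-1 arrays and on neither MDA-MB-453 array. A test of that difference between lines would use the contrast that chose the genes, so none is given.

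**Figure D1:**
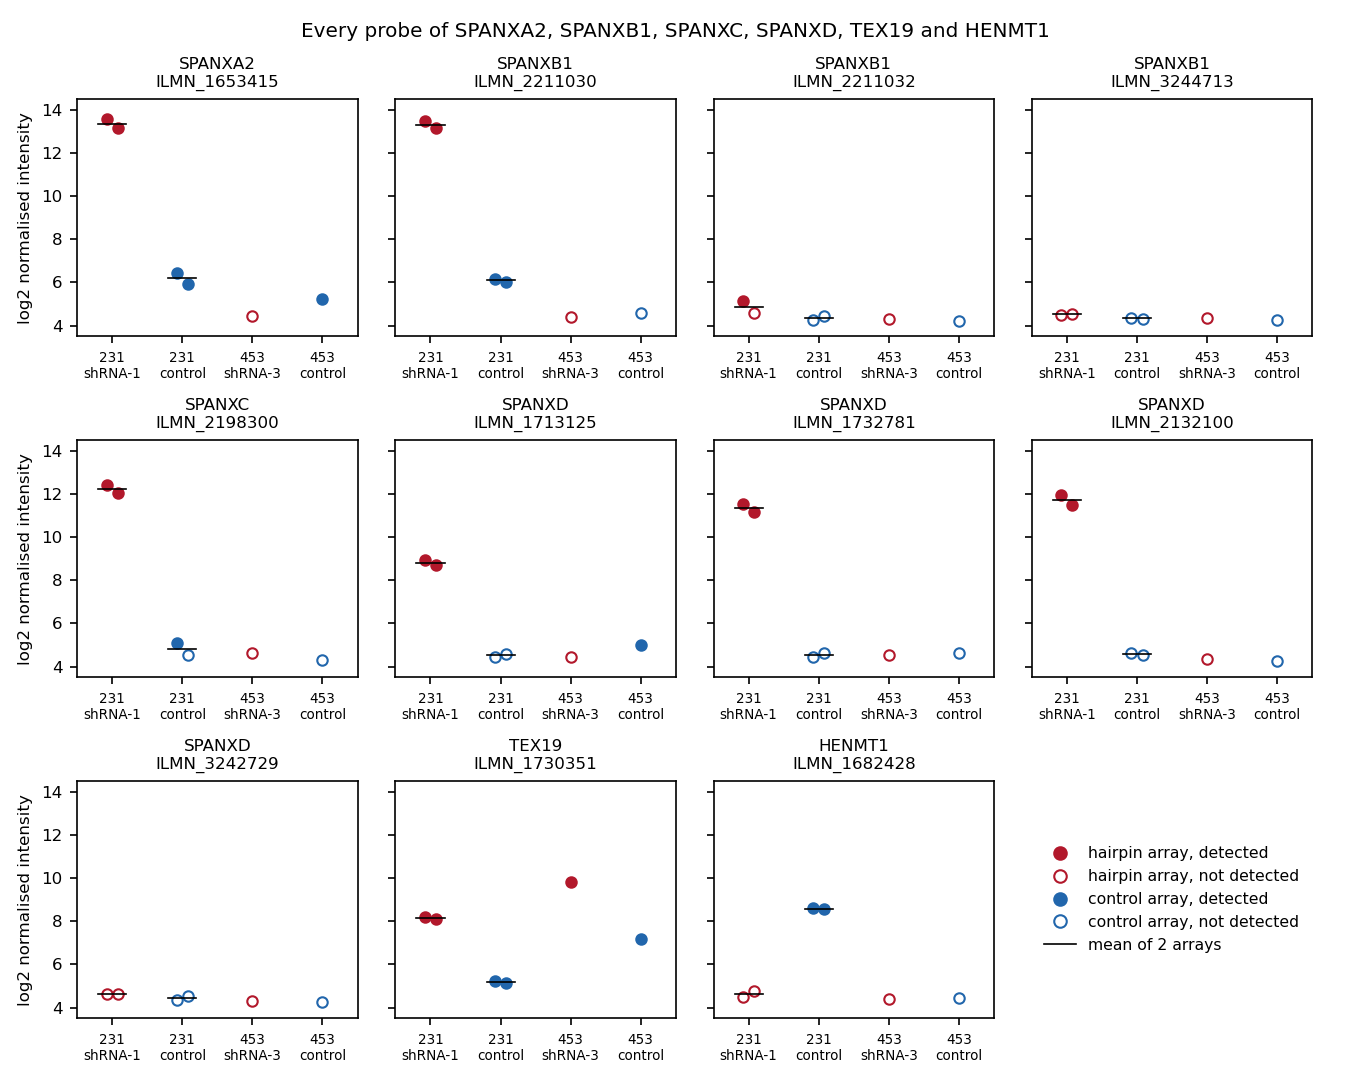
Normalised log2 intensity (vertical axis) of each of the 11 probes on the 6 arrays, by cell line and hairpin. Filled points are detected (p below 0.05), open points are not, and bars are means of 2 arrays. SPANX probes that responded reach 8.69 to 13.59 on the MDA-MB-231 shRNA-1 arrays and stay at 6.46 or below elsewhere, TEX19 is higher with the hairpin in both lines, and HENMT1 is detected on the MDA-MB-231 controls alone.

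TEX19 was higher with the hairpin in both lines. In MDA-MB-231 it read 8.17 and 8.08 on the shRNA-1 arrays, against 5.25 and 5.15 on the controls, a 7.63-fold difference of means. In MDA-MB-453 it read 9.84 on the shRNA-3 array, against 7.16 on the control, a 6.37-fold difference between single arrays. The only TEX19 probe was detected on all 6 arrays. Both values depend on the handling of background, and that of MDA-MB-231 more. The log2 differences were 2.93 in MDA-MB-231 and 2.67 in MDA-MB-453, and 2.15 and 2.42 with an offset of 50, so which line differed more changed with the offset. In original units it gave 307 and 283 with shRNA-1, against 64.3 and 64.6 in MDA-MB-231 controls, and 1105 with shRNA-3, against 145 in the MDA-MB-453 control. The 2 lines differed at the start, with the MDA-MB-453 control above both MDA-MB-231 controls.

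TEX19 was chosen for its change in MDA-MB-231, but with earlier results of these data known. Its MDA-MB-453 values may therefore have been seen, and nothing is read from its rank there. MDA-MB-453 has 1 array per arm and allows no test on its own. There 9 of 13022 genes, TEX19 among them (0.069%), were higher with shRNA-3 by at least as much, where 1.51% of genes were higher by 2-fold or more and 1.56% lower. In both lines 3 genes were higher by 4-fold or more (0.023% of those tested), and since TEX19 met the bound in MDA-MB-231 by its choice, nothing is read from that share. Beside TEX19 they were S100P, a calcium-binding protein, and GDF15, a stress-induced cytokine, both named after their values were seen. S100P differed by 5.44 in MDA-MB-231 and 4.04 in MDA-MB-453, and GDF15 by 3.95 and 3.75.

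HENMT1 showed the opposite pattern to SPANX. It read 4.47 and 4.76 on the MDA-MB-231 shRNA-1 arrays, where it was not detected, against 8.60 and 8.58 on the controls, which is at least 14.0-fold lower on this scale. The log2 difference was -3.97, and -2.84 with an offset of 50. In MDA-MB-453 it was not detected on either array, at 4.39 with shRNA-3 and 4.44 in the control. Of the arrays here only the 2 MDA-MB-231 controls gave a HENMT1 signal, and a fall in MDA-MB-453 could not have been seen.

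The spread between replicates was small beside these differences for all 6 genes. The SD of the 2 shRNA-1 arrays was 0.32 for SPANXA2, 0.07 for TEX19 and 0.21 for HENMT1, and that of the 2 controls was 0.39, 0.07 and 0.01 (n = 2 each). For a single gene an exact permutation of 2 against 2 arrays cannot give a p below 0.333. Over all 13022 genes, both shRNA-1 arrays lay above both controls for 34.1% and below both for 34.8%. Separation of the arms was therefore common in MDA-MB-231, and nothing is read from it for the chosen genes. In the fit across all genes 19.5% of genes rose and 19.7% fell there, 39.2% in all (limma, adjusted p below 0.05). The differences of the 6 genes are large against that background because they were chosen to be.

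Genes whose 6 array values followed those of SPANXC most closely, by Euclidean distance of mean-centred log2 values, were SPANXD (0.52), CST1 (0.57), ADGRF5 (0.69), CD74 (0.81) and CDH11 (0.82). CST1 is a secreted cystatin, ADGRF5 an adhesion receptor, CD74 a chaperone of MHC class II proteins and CDH11 a cadherin. All 4 were high on both MDA-MB-231 shRNA-1 arrays and low on the other 4. Nearest to TEX19 were OAS2, an interferon-induced synthetase (1.2), GDF15 (1.32), the cathepsin CTSF (1.52), the circadian factor DBP (1.52) and MLPH (1.55), a melanosome transport protein. These matches were looser than those of SPANXC, and with shRNA-3 OAS2 differed by 1.22 and MLPH by 0.68. Nearest to HENMT1 were ENG (0.41), SNCAIP (0.44), BCHE (0.45), ECSCR (0.46) and NLRP3 (0.75).

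Most of the nearest tested neighbours of HENMT1 fell and most of those of TEX19 rose in MDA-MB-231, each by less than the gene itself. Of the 10 tested genes nearest to HENMT1 on chromosome 1, 6 fell and 0 rose in MDA-MB-231, with a median difference of -0.77. They were PRMT6, an arginine methyltransferase (-1.85), EEIG2 (-1.72), the mitochondrial carrier SLC25A24 (-1.47), the syntaxin-binding STXBP3 (-1.21), the splicing factor PRPF38B (-0.95) and the spindle protein GPSM2 (-0.59). Their limma adjusted p-values ran from 1.91e-04 to 0.0399, and the call of GPSM2 was lost without shRNA-1 replicate 2 or either control (adjusted p up to 0.269). SLC25A24 has 3 probes, and 1 of them fell. Around a tested gene in general, 6 or more of 10 neighbours had fallen in 5.22% of 12765 windows. Over all 1328 tested genes of chromosome 1 the median difference was 0.03. In MDA-MB-453 the 10 neighbours had a median of -0.40 between single arrays, with EEIG2 at -0.75 and SLC25A24 at -0.67.

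Of the 10 tested genes nearest to TEX19 on chromosome 17, 6 rose and 0 fell in MDA-MB-231, with a median of 0.74. OGFOD3 rose by 1.68 (SE 0.21, limma adjusted p = 5.03e-04) on all 6 of its probes, and the kinase CSNK1D by 0.91. NARF (0.93), CYBC1 (0.80), HEXD (0.74) and SECTM1 (0.74) also rose, but HEXD and SECTM1 lost their call without control replicate 1, and NARF and CYBC1 without control replicate 2, with adjusted p-values of up to 0.112. Windows with 6 or more genes that rose made up 2.63% of all. The MDA-MB-453 median of these neighbours was 0.04, whereas TEX19 itself differed by 2.67 there. Around SPANXC on chromosome X, 6 of the 10 neighbours were not SPANX genes. Among these 6, MAGEC2 and MAGEC1, cancer-testis genes, rose by 1.83 and 0.53, LDOC1 fell by 0.60, and their median difference was -0.32. MAGEC2 and MAGEC1 were detected on arrays labelled knock-down alone and passed the filter through them, which favours a rise. The call of LDOC1 was lost without shRNA-1 replicate 2 or control replicate 1 (adjusted p up to 0.245), and that of MAGEC1 without shRNA-1 replicate 1 or either control (up to 0.187). How far shifts of whole regions account for the 6 genes was not tested.

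**Figure D2:**
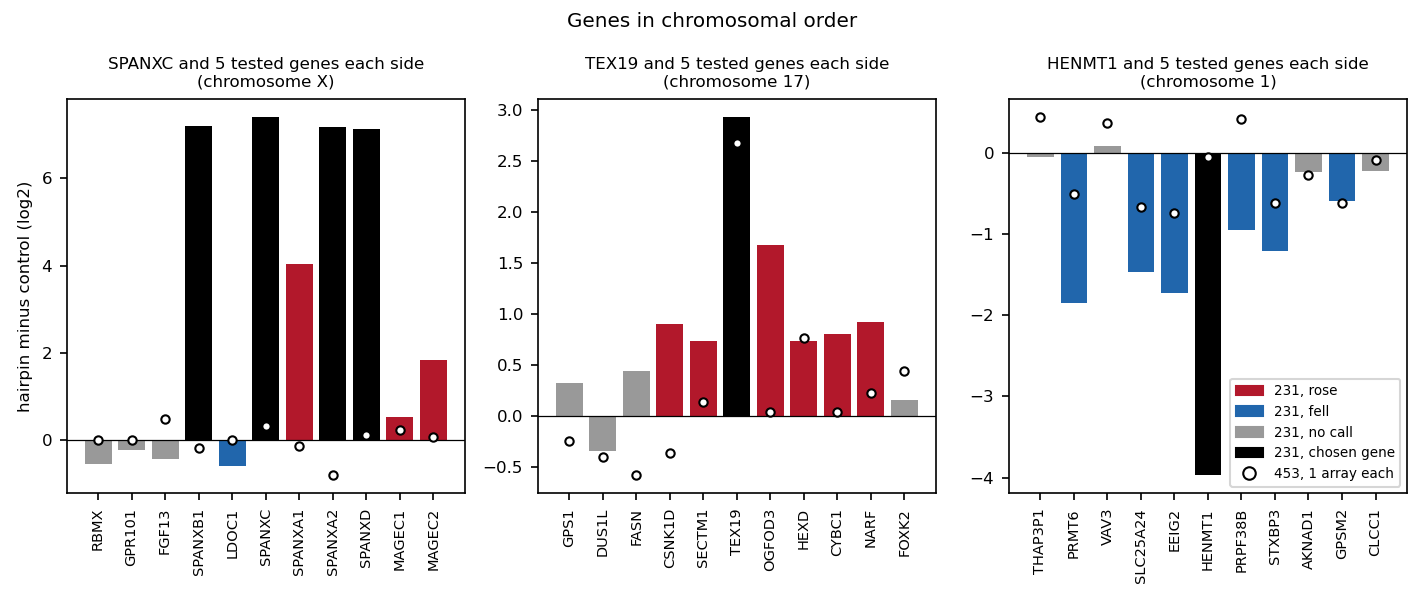
Difference of hairpin minus control (log2, vertical axis) for SPANXC, TEX19 and HENMT1 and the 5 tested genes on each side in chromosomal order. Bars are MDA-MB-231, coloured by the limma call and black for the genes chosen on this difference, and open points are MDA-MB-453. Neighbours of TEX19 lean upwards and those of HENMT1 downwards in MDA-MB-231, with medians of 0.74 and -0.77, while the genes beside the SPANX copies are mixed.

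Among other germline genes the shares that changed lay near those of all genes or below them, depending on the filter and the handling of background. Over 7 lists of germline genes without the 6 chosen ones, 15 of 78 tested genes rose (19.2%, against 19.5% of all genes) and 12 fell (15.4%, against 19.7%) in MDA-MB-231. The median difference was 0.06, and -0.01 over all genes. One of the 15 is SPANXA1, whose probes may read the chosen copies. Without it 14 of 77 rose. With no filter on detection, 13 of 248 germline genes rose (5.24%, against 11.6% of all 20046) and 12 fell (4.84%, against 11.5%). The counts depended on the controls, with 9 rising and 4 falling without control replicate 1, and 8 and 8 without control replicate 2. With an offset of 50, 9 of 78 rose and 10 fell, against 2480 and 2493 of all 13022 genes. With no background correction 10 of 78 rose and 13 fell, against 2592 and 2658 of all 13022 genes.

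Most germline genes stayed silent. Of 248 named on the array, 134 (54.0%) were not detected on any array, against 27.9% of all 20046 genes. Between 64 and 70 were detected per MDA-MB-231 shRNA-1 array, against 11735 to 11874 of all genes. Of the germline genes, 53 to 57 were detected per MDA-MB-231 control array, against 11515 to 11645 of all genes. On any of their probes, 6 were detected on both shRNA-1 arrays and neither control (2.42%, against 2.35% of all genes), and 5 showed the reverse (2.02%, against 1.49%). The 6 were VCX, VCX2, VCX3B, MAGEB2, MAGEC1 and NANOS1, and the 5 were CT45A1, CT45A3, CT45A5, PHF7 and TEX29, named after their values were seen. In MDA-MB-453, 19 were detected with shRNA-3 alone (7.66%, against 5.23% of all genes) and 8 in the control alone (3.23%, against 3.01%).

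X-linked cancer-testis genes are the group to which SPANX belongs. Of 21 tested, 6 rose (28.6%) and 2 fell (9.52%), with a median of 0.16. These shares are near those of all 472 tested genes of chromosome X, of which 30.3% rose and 11.2% fell, with a median of 0.21. The filter favours the share that rose, since VCX, VCX3B, MAGEC2 and MAGEB2 passed it through the MDA-MB-231 shRNA-1 arrays alone. MAGEC1 passed it through arrays labelled knock-down alone. Genes of the VCX and of the CT45 family are also known as close copies, which was not checked here, so which copy changed is uncertain. VCX, of a family expressed in male germ cells, read 6.98 and 6.81 on the shRNA-1 arrays, against 4.28 and 4.25 on the controls, where it was not detected. It was at least 4.26-fold higher. VCX3B was at least 3.57-fold higher, also with no control array detecting it. VCX3A rose by 2.14 ± 0.25 (SE). MAGEC2 was at least 2.55-fold higher on the probe tested, but its other probe differed by 0.22 without a call. With no background correction that other probe was taken for the gene (0.15, limma adjusted p = 0.489). VCX, VCX3B and MAGEC2 were detected on the 2 shRNA-1 arrays alone and passed the filter through them, which favours a difference. In the fit with no filter their limma adjusted p-values were 3.13e-04, 5.11e-04 and 0.00238.

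Among the 3 CT45 genes tested, CT45A3 and CT45A1 fell, and CT45A5 was not called at -0.46 (limma adjusted p = 0.0543). CT45A3 read 4.53 and 4.38 on the shRNA-1 arrays, where it was not detected, against 6.13 and 5.62 on the controls. It was at least 2.14-fold lower (limma adjusted p = 0.001), and all 3 of its probes fell. CT45A1 was at least 1.54-fold lower, with an adjusted p of 0.0505 without control replicate 1. It was detected on the 2 controls alone, and had an adjusted p of 0.0102 in the fit with no filter. In MDA-MB-453 CT45A3 read 5.10 with shRNA-3 and 4.57 in the control. X-linked cancer-testis genes thus changed in both directions in MDA-MB-231.

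**Figure D3:**
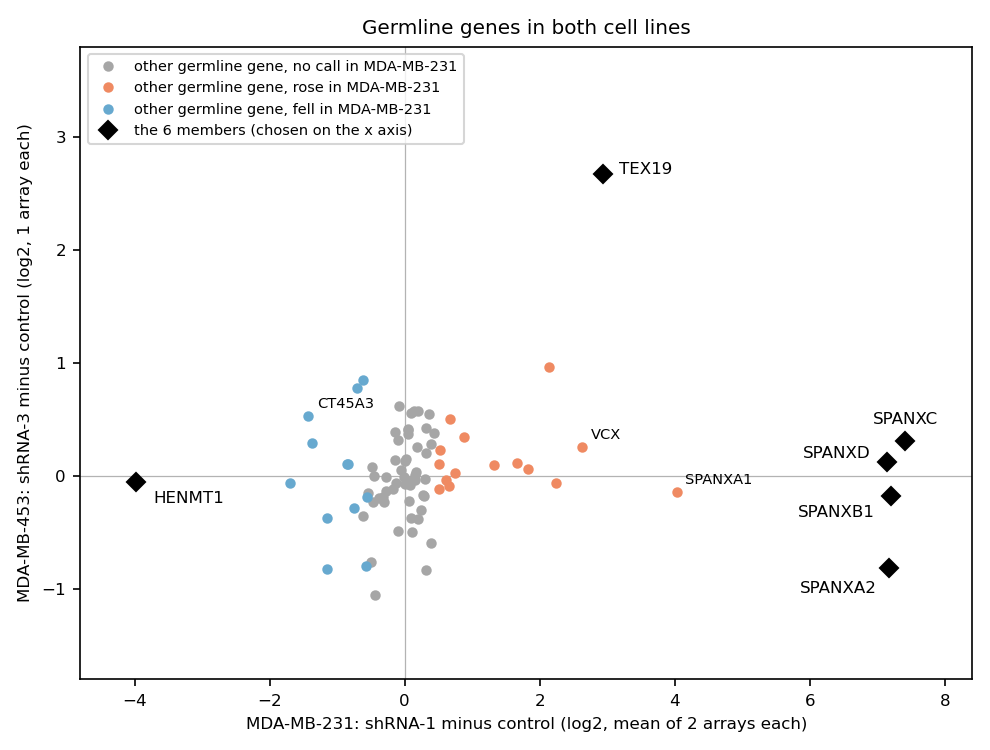
Difference of hairpin minus control on the log2 scale in MDA-MB-231 (horizontal axis, means of 2 arrays each) and MDA-MB-453 (vertical axis, 1 array each). Circles are the 78 other germline genes, coloured by the limma call in MDA-MB-231, and diamonds are the 6 genes chosen on the horizontal axis. TEX19 stands high on both axes at 2.93 and 2.67, the SPANX genes only on the horizontal one.

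Genes of the piRNA pathway, to which HENMT1 belongs, gave 2 that rose (25%, against 19.5% of all genes) and 4 that fell (50%, against 19.7%) of 8 tested, with a median of -0.35. MYBL1, the transcription factor that drives piRNA production in mouse spermatocytes, fell by 1.37 ± 0.20 (SE, limma adjusted p = 0.00107), and both shRNA-1 arrays, at 7.22 and 7.44, lay below both controls, at 8.48 and 8.92. GPAT2 (-0.84, on 1 of its 2 probes), the mitochondrial nuclease PLD6 (-0.71) and SPOCD1 (-0.62), a factor of piRNA-directed methylation in mice, also fell. MAEL (0.61) and the tudor protein TDRD1 (0.51) rose, each on 1 of its 2 probes. All of these except MYBL1 lost their call without either control array, with adjusted p-values of up to 0.241, and each of them also without 1 or both of the shRNA-1 arrays. The other 16 of the 24 pathway genes on the array did not pass the filter on detection.

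Meiosis genes gave 1 that rose (5.88%, against 19.5% of all genes) and 2 that fell (11.8%, against 19.7%) of 17 tested, with a median of 0.06. PSMC3IP, a partner of the meiotic recombinase, fell by 1.16 ± 0.17 (SE, limma adjusted p = 9.81e-04) on all 3 of its tested probes. TRIP13 fell by 0.76 and MEI1 rose by 0.51, and both calls were lost without either control array, that of MEI1 also without shRNA-1 replicate 1 (adjusted p up to 0.163). MEI1 rose on 1 of its 2 tested probes. Spermatid and sperm genes gave 3 that rose (16.7%) and 3 that fell (16.7%) of 18, with a median of -0.10. Both shares also lay below those of all genes. CATSPER1, a subunit of the sperm calcium channel, rose by 1.66 ± 0.34 (SE), the sperm tail protein CABYR by 1.33 and the chaperone HSPA1L by 0.88. CREM, a transcription factor of spermatids that other cells also express, fell by 1.70 ± 0.17 (SE, limma adjusted p = 1.19e-04), TEX30 by 1.15 and TEX29 by 0.56. TEX29 was detected on the 2 MDA-MB-231 controls alone and passed the filter through them, which favours a fall. With an offset of 50 TEX29 was not called (limma adjusted p = 0.131). The calls of TEX30 and TEX29 were lost without control replicate 1, that of TEX29 also without control replicate 2 or shRNA-1 replicate 2 (adjusted p up to 0.169).

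The 2 remaining germline lists held 7 and 6 tested genes, too few for their shares to be read. Of the autosomal cancer-testis genes 14.3% rose and 14.3% fell, against 19.5% and 19.7% of all genes. Of the germ cell and pluripotency genes 16.7% rose and 0% fell. Of 7 autosomal cancer-testis genes tested, ZNF165 rose (0.66) and SPA17 fell (-0.58), and both calls were lost without either control array, that of SPA17 also without shRNA-1 replicate 2 (adjusted p up to 0.153). Of 6 germ cell and pluripotency genes tested, PRDM1, a repressor that specifies germ cells, rose by 0.75. That call was lost without shRNA-1 replicate 2 or control replicate 2 (adjusted p up to 0.175).

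Repressors of germline genes are chromatin proteins known to hold such genes silent in body cells. Of 22 tested, 7 fell in MDA-MB-231 (31.8%, against 19.7% of all genes) and 1 rose (4.55%, against 19.5%), with a median of -0.28. The list was chosen with earlier results of these data known, so nothing is read from its shares. PCGF6, a subunit of the variant Polycomb complex that holds MGA, MAX and E2F6, fell by 2.21 ± 0.23 (SE, limma adjusted p = 1.54e-04) on all 3 of its probes. It read 8.48 and 9.10 on the shRNA-1 arrays, against 10.91 and 11.09 on the controls. HELLS, a remodeller needed for DNA methylation, fell by 1.84 and TFDP1, the partner of E2F factors, by 1.60, each on both of its probes. E2F6 fell by 1.17 on the probe tested, but its other probe differed by 0.37 in the opposite direction without a call. UHRF1, DNMT1 and, on 1 of its 2 probes, HDAC2 fell by 1.04, 0.81 and 0.70, and the calls of DNMT1 and HDAC2 were lost without control replicate 2 (limma adjusted p = 0.0952 and 0.105). EHMT1, a histone methyltransferase, rose by 0.61, and that call was lost without shRNA-1 replicate 2 or either control (adjusted p up to 0.132). In MDA-MB-453 the list had a median of -0.23 between single arrays, against 0.02 over all genes. There UHRF1 stood at -0.73, PCGF6 at -0.62, HDAC2 at -0.44, HELLS at -0.40 and E2F6 at -0.25. TFDP1 at -0.15, DNMT1 at -0.08 and EHMT1 at 0.10 differed less. CBX3, not called in MDA-MB-231, stood lower at -1.16. The region-wide falls and rises described above were in the same arrays, and their part in these values was not tested.

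**Figure D4:**
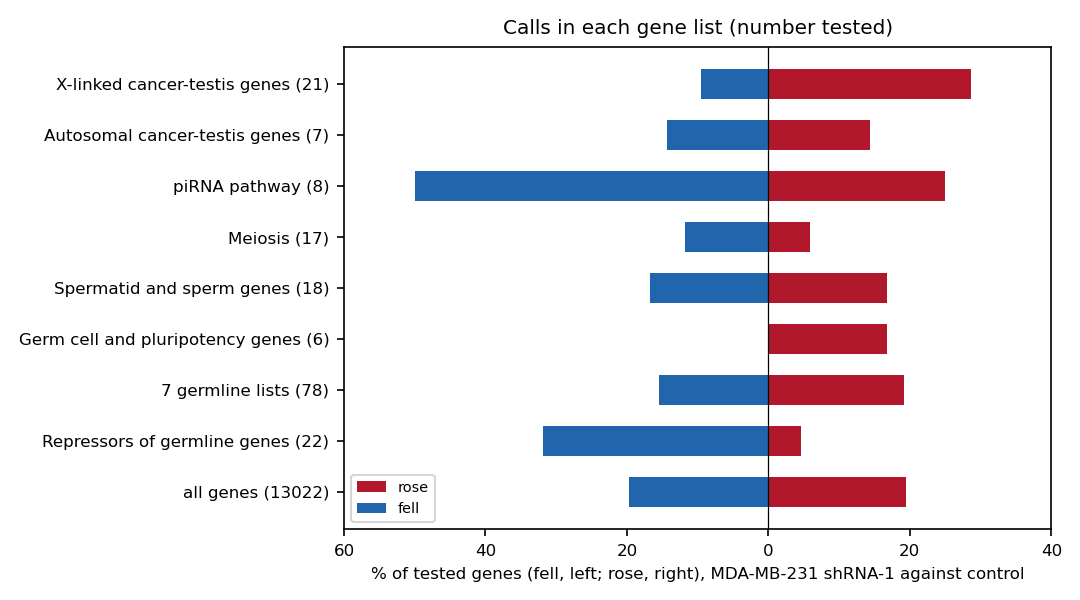
Share of tested genes (horizontal axis, %) that rose (right) or fell (left) in MDA-MB-231 shRNA-1 against control, by gene list, with the number tested in brackets. All germline lists together lie near all genes (19.2% against 19.5% risen), and 31.8% of the repressor list fell. The lists were chosen with earlier results of these data known.

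Markers of the cell lines were set beside these results. Of 17 markers of MDA-MB-453, 9 rose (52.9%, against 19.5% of all genes), 1 fell (5.88%, against 19.7%) and 7 were not called in MDA-MB-231. Their summed linear normalised intensity was 11379 and 12013 on the shRNA-1 arrays, against 4346 and 4878 on the controls, and 73223 and 67204 on the MDA-MB-453 arrays labelled shRNA-3 and control. SPDEF rose by 4.92 and AGR2, on 1 of its 2 probes, by 4.72, while FOXA1 fell by 3.78. KRT19 rose by 4.48, to 12.27 and 12.11 on the shRNA-1 arrays from 7.98 and 7.45 on the controls, and ELF3 by 1.80. A linear sum is weighted to the brightest genes, such as KRT19. KRT18 read higher on all 4 MDA-MB-231 arrays than on either MDA-MB-453 array. PIP and RAB25, at 11.31 and 11.97 with shRNA-3, went undetected on all 4 MDA-MB-231 arrays. What these marker values mean for the 6 chosen genes was not tested. Of 15 markers of MDA-MB-231, 4 rose (26.7%, against 19.5% of all genes) and 1 fell (6.67%, against 19.7%). Their summed level was 82513 and 84751 on the shRNA-1 arrays, against 78784 and 87767 on the controls.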

How the data were processed

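Arrays were grouped by their titles. The authors deposited probe intensity values, not normalized and with no background step named, and beside each a detection p-value, per the file headers. A second set of values that the authors deposited, on the log2 scale, equalled quantile-normalized log2 intensities to within 5.26e-09 on every array, with a median of 5.71 on each. Gene names came from GEO's annotation of the platform, in which 30113 probes have 1 symbol, 8 several and 17986 none. With limma 3.58.1 in R 4.3.3, intensities were corrected by normexp (negative controls inferred from detection p, offset 16), quantile-normalized and put on the log2 scale. Probes detected (p below 0.05) on at least 2 arrays were kept, and the brightest per gene was tested, giving 13022 genes. A mean was fitted for each of the 4 groups (2 residual degrees of freedom, two-sided, Benjamini-Hochberg over all genes, threshold 0.05). For the lone arrays of MDA-MB-453 the spread of MDA-MB-231 replicates was assumed. A fold is "at least" where a group was not detected on any array, each dim array then being raised to its lowest detected value. All 6 chosen genes and 8 of their 11 probes passed the filter. The members and the 10 gene lists were chosen with earlier results of these data known. Named genes were up to 4 per list and direction with the largest difference among those called, called neighbours (5 tested genes each side), and the 5 genes nearest in pattern. Gene order and 30074 gene identifiers came from RefSeq. The fit was tested on simulated data. Alternatives changed the background correction, offset, scaling, filter, probe choice, arrays and pairing.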

Additional observations from a re-analysis of the deposited data

Results flagged for a closer look

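Some genes named above differed between the lines by the fit's contrast of effects, MDA-MB-231 minus MDA-MB-453, in which the MDA-MB-453 arms are single arrays whose own spread is not in the test. That contrast passed (limma, adjusted p below 0.05) for 13.6% of all genes and for 10 of 77 germline genes without SPANXA1 (13%). Higher in MDA-MB-231 relative to MDA-MB-453 were VCX by 2.37 (adjusted p = 0.00146), VCX3B by 2.30, MAGEC2 by 1.77 and CABYR by 1.23. Lower were CT45A3 at -1.96 (adjusted p = 0.00998), MYBL1 at -1.66, CREM at -1.64, PLD6 at -1.49 and SPOCD1 at -1.47. CREM was not detected on either MDA-MB-453 array, and CT45A3 not in the MDA-MB-453 control. A fall of these genes in MDA-MB-453 could therefore not have been seen. VCX, VCX3B and MAGEC2 passed the filter through the MDA-MB-231 shRNA-1 arrays alone. PLD6 and SPOCD1 differed by -0.71 and -0.62 in MDA-MB-231, where both calls were lost without either control, and by 0.78 and 0.85 between the single MDA-MB-453 arrays. Among the repressors PCGF6 differed by -1.59, TFDP1 by -1.45 and HELLS by -1.44. Among the neighbours OGFOD3 differed by 1.64, CSNK1D by 1.27, PRPF38B by -1.37 and PRMT6 by -1.34. The contrast is not given for the 6 chosen genes or for SPANXA1, whose probes may read them.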

How the results depend on the processing

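The differences of the 6 chosen genes kept their direction in MDA-MB-231 under 8 alternatives, with ranges of 6.27 to 7.70 for SPANXC, 2.15 to 2.98 for TEX19 and -4.12 to -2.84 for HENMT1, and TEX19 ranged from 2.42 to 3.05 in MDA-MB-453 under 4. Median scaling put the median of all genes at 0.26 in MDA-MB-453. With an offset of 50, 9 of 78 germline genes rose, against 2480 of all 13022 genes. Among genes detected on all 6 arrays, with 25 germline genes left, 3 rose, 6 fell and 3 differed between lines. No share over all genes is given for that filter, so nothing is read from these counts. Leaving out single MDA-MB-231 arrays gave 8 to 13 germline genes that rose and 4 to 15 that fell, and 1527 to 2613 and 1366 to 2633 of all genes, lowest without a control array. A replicate block, for which the labels give only shared numbers (correlation of deviations 0.07), left 13 germline genes that rose and 12 that fell, and 2449 and 2470 of all genes. Signals near background limit what can be said of genes not detected.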
